A study of Mus musculus with 6 samples.

Results

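Antioxidant defence genes and targets of the transcription factor Nrf2 were followed in the ventricles of 6 mice. The group holds 35 genes, taken by symbol from a table of 18158 features, and all 35 were listed. The Paro/Neo group was 3 CD1 mice, an outbred stock, aged 3 months, given the aminoglycoside antibiotics paromomycin and neomycin at 150 mg/kg 2 times a day into the peritoneum for 14 days. The Vehicle group was 3 CD1 mice of the same age given daily injections of PBS, the carrier solution, over the same period. Each library is the stranded mRNA of the snap-frozen ventricles of 1 mouse, read at 76 bp, so it mixes muscle with all other cells of the organ. Levels are in TPM, reads per length of transcript, with every library scaled to 1 common total. The design text frames the comparison as gene expression where the treatment suppresses Meis1 and Hoxb13.

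Nrf2, encoded by Nfe2l2, is a transcription factor that the adaptor Keap1 holds in the cytoplasm and hands to a ubiquitin ligase. Oxidants and electrophiles modify cysteines of Keap1, Nrf2 then escapes degradation, enters the nucleus and binds antioxidant response elements next to genes for glutathione synthesis, thioredoxin reduction, quinone reduction and haem breakdown. Heart muscle, which is rich in mitochondria, also depends on superoxide dismutases, catalase, peroxiredoxins and glutathione peroxidases, many of them expressed without induction. Aminoglycosides are known for toxicity to the kidney and the inner ear, in which reactive oxygen species are thought to take part.

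None of the antioxidant genes passed the test. Of the 35, 34 reached 1 TPM in at least 3 of 6 libraries and were tested in a limma fit over 12409 genes, and 0 had a Benjamini-Hochberg adjusted p under 0.05, against 0.137% of all tested genes. Adjusted p ran from 0.504 for Cybb to 0.999 for Prdx4. At an unadjusted p under 0.05 there were 2, Cybb on the higher side and G6pdx on the lower, where 7.61% of all tested genes had such a p. The same 2 genes were the ones whose groups did not overlap, against 14.3% of all tested genes. By voom, a limma fit on reads inferred from the table, 0 passed as well, with Cybb and G6pdx again at an unadjusted p under 0.05. Paro/Neo hearts had the higher mean log2 level for 12 of the 34 and the lower for 22, the median log2 change being -0.033, beside -0.017 over all tested genes. Log2 changes are differences of log2(TPM + 1), Paro/Neo minus Vehicle, on which the change of a low gene comes out smaller than its ratio. In RNA of a whole tissue, fewer cells of a type and less RNA per cell cannot be told apart.

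**Figure D1:**
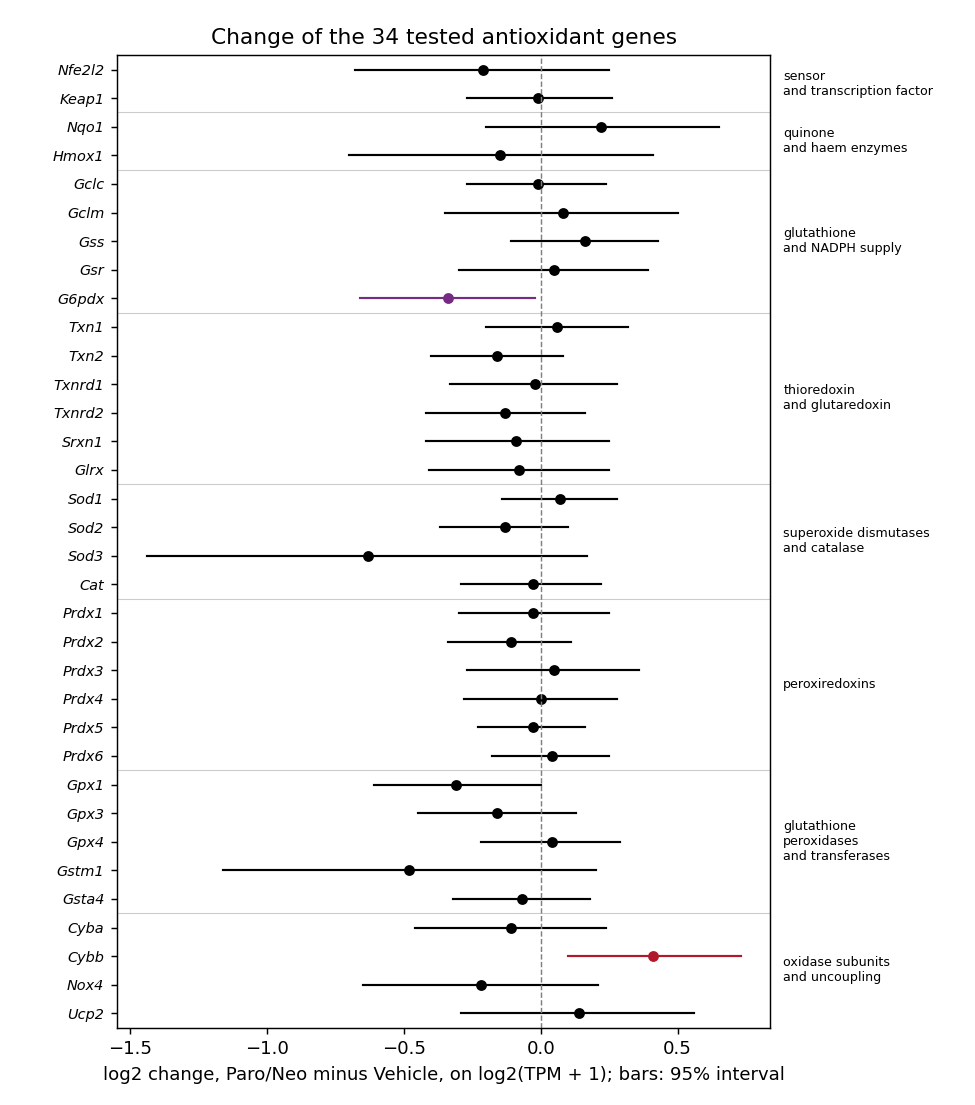
Log2 change of each of the 34 tested antioxidant genes, Paro/Neo minus Vehicle, with its 95% interval from the limma fit (n = 3 mice each), grouped by role. Coloured points are Cybb (0.41) and G6pdx (-0.34), the genes whose groups did not overlap, and Sod3 and Gstm1 have the widest intervals.

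The intervals set how large a difference these 6 mice leave room for. For 25 of the 34 tested genes the 95% interval of the fold change lay within 1.5-fold in either direction, and for 32 it lay within 2-fold. The exceptions to the wider bound were Sod3, at 0.368 to 1.13, and Gstm1, at 0.447 to 1.15. The narrowest intervals belonged to abundant genes such as Prdx5, at 0.855 to 1.12, and Prdx6, at 0.884 to 1.19. The bounds are folds of TPM + 1, so for low genes they are narrower than folds of TPM would be. For Nox4 the log2 change was -0.22 ± 0.185 (SE), and -0.325 ± 0.272 with a pseudocount of 0.1 TPM. A p that misses the threshold does not show that the groups were alike.

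The libraries differed in depth, and 1 of them stood apart in its values. Steps between low values put the reads assigned to genes at no fewer than 9556387 to 15969980 per library, with both ends of that range in Vehicle hearts. Heart muscle was plain in all 6, with Myl2, the ventricular myosin light chain, at 63771 ± 10459 TPM in Paro/Neo and 57110.1 ± 1828 TPM in Vehicle hearts (SD, n = 3 each). The liver genes Alb, Apoa1 and Ttr summed to 0.304 to 1.37 TPM in Paro/Neo and 0.333 to 2.30 TPM in Vehicle hearts. Paro/Neo replicate 1 was the extreme library on principal component 1 of all tested genes, with a score of 36.3 against -16.3 to 3.24 for the other 5 libraries. It held the highest or the lowest of the 6 values for 22 of the 34 tested antioxidant genes (64.7%), and for 60.0% of all tested genes. Its median deviation from the Vehicle mean over the 34 was still small, at -0.035 on the log2 scale, beside -0.030 and -0.055 in Paro/Neo replicates 2 and 3 and -0.045 to 0.058 in the Vehicle hearts.

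**Figure D2:**
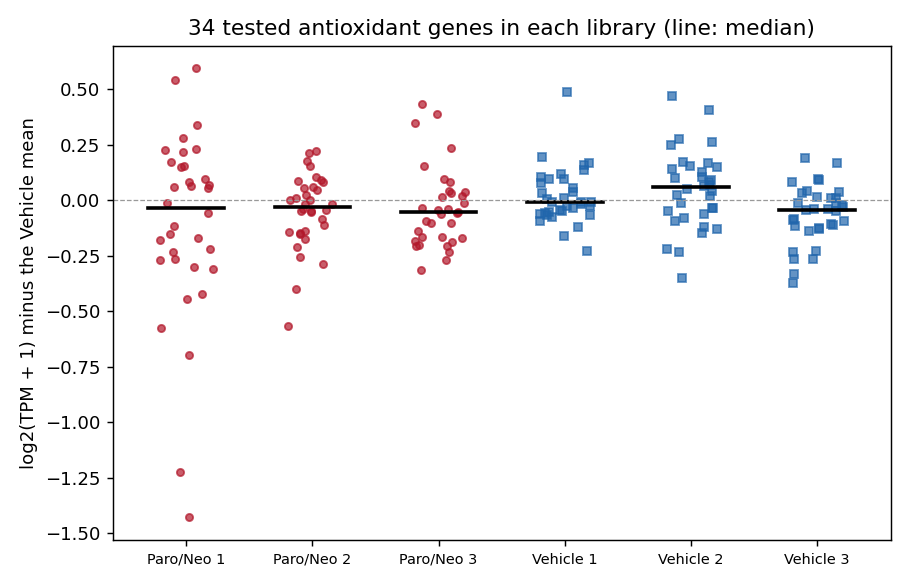
Deviation of each of the 34 tested antioxidant genes from its Vehicle mean on the log2(TPM + 1) scale, by library, with points for genes and a line at the median. The medians lie between -0.055 and 0.058 in all 6 libraries, while Paro/Neo replicate 1 has the widest spread, with Sod3 and Gstm1 lowest.

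Together the 35 genes made up 0.718% of all TPM. Their summed level was 7243, 7092 and 6865 TPM in the Paro/Neo hearts, against 7280, 7350 and 7233 TPM in the Vehicle hearts. The groups overlapped narrowly, since Paro/Neo replicate 1 stood just above Vehicle replicate 3. Peroxiredoxins, which reduce hydrogen peroxide through a reactive cysteine, held 48.8% to 54.0% of that sum in Paro/Neo and 49.9% to 50.9% in Vehicle hearts. Superoxide dismutases and catalase held 18.5% to 21.0% in Paro/Neo and 18.6% to 19.9% in Vehicle hearts. Glutathione peroxidases and transferases held 13.3% to 16.3% in Paro/Neo hearts, against 15.3% to 17.3% in Vehicle hearts, and the groups overlapped in the share of each role.

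**Figure D3:**
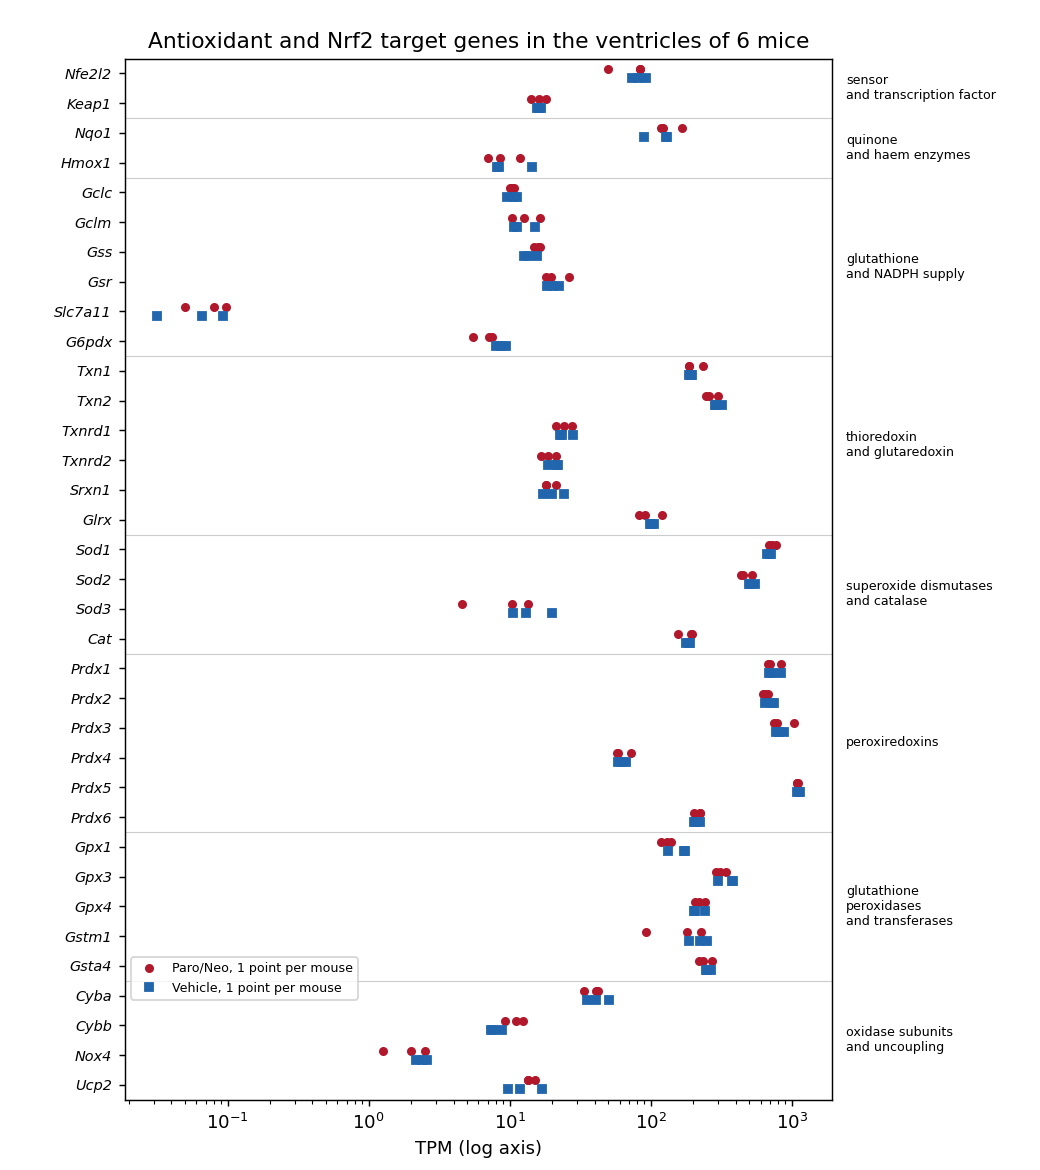
TPM of the 35 antioxidant genes in each mouse on a log axis, with Paro/Neo hearts as circles above Vehicle hearts as squares in each row, grouped by role. Levels span from Slc7a11, below 0.1 TPM in each heart, to Prdx5, at 1084 to 1138 TPM, and the spread between genes is far wider than that between groups.

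Nfe2l2, which encodes Nrf2, was at 50, 83.2 and 83.9 TPM in the Paro/Neo hearts, against 80.7, 73.7 and 91.9 TPM in the Vehicle hearts. Paro/Neo replicate 1 was the lowest of the 6 and the other Paro/Neo hearts lay within the Vehicle range. By limma the log2 change was -0.21 ± 0.20 (SE; adjusted p 0.804), and without Paro/Neo replicate 1 it was 0.030. Keap1, the repressor of Nrf2, was at 14.2, 16.1 and 18.0 TPM in the Paro/Neo hearts and 16.0, 15.7 and 16.6 TPM in the Vehicle hearts. The Vehicle values of Keap1 lay inside the Paro/Neo range, and the 95% interval of its fold change was 0.828 to 1.2. Both mRNAs report the amount of transcript and not the stability of the protein, which is the step that Keap1 controls.

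The promoters of the 2 genes whose groups did not overlap, and of 2 Nrf2 targets whose groups did, are shown to place the response element beside the values. The core of the antioxidant response element was searched as TGACNNNGC on both strands, GCNNNGTCA being its reverse complement, in RefSeq promoters on GRCm38.p6 that run from 250 bases before to 50 after each start site. Of the 35 genes, 29 matched the promoter table, with 36 promoters. Gclc, Gsr, Gsta4, Hmox1, Prdx6 and Sod3 had no entry. The core was in 8 of the 36 promoters (22.2%), those of G6pdx, Gclm, Nfe2l2, Prdx1, Sod1, Srxn1, Txnrd1 and Ucp2, and in 12.4% of all 32851 promoters of that length. A match describes letters and not a bound site, and these windows leave out elements farther away. Capitals mark the core in the sequences, each printed 5′ to 3′ along the gene, and Cybb has none in this window. For Cybb, G6pdx and Prdx1 the RefSeq start site lies inside the longer GENCODE gene.
Cybb, chrX:9469275-9469574, minus strand: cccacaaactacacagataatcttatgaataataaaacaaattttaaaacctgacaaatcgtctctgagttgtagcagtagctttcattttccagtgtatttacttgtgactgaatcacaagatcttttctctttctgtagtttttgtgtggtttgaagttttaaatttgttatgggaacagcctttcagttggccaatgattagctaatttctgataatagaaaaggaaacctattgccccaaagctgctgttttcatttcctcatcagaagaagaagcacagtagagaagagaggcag
G6pdx, chrX:74428831-74429130, minus strand: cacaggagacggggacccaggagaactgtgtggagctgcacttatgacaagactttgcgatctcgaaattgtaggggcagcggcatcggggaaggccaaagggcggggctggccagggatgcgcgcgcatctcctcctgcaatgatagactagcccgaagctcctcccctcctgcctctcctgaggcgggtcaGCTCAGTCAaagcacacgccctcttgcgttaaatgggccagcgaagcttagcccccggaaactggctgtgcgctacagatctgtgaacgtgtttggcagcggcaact
Gclm, chr3:122245307-122245606, plus strand: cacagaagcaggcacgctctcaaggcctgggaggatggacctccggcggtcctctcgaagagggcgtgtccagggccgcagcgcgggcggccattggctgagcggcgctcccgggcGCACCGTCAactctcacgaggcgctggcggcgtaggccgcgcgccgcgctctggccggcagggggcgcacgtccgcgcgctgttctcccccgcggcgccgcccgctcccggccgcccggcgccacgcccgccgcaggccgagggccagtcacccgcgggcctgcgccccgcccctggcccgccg
Prdx1, chr4:116685349-116685648, plus strand: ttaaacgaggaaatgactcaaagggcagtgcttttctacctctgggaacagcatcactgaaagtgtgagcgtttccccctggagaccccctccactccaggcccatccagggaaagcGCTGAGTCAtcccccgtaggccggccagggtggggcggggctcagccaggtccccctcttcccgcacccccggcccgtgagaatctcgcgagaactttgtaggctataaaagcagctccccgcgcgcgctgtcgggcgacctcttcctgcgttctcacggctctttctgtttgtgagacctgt
The core starts at position -57 in G6pdx, -134 in Gclm and -133 in Prdx1, counted from 0 at the start site. Of the 8 genes with a core, G6pdx was lower without overlap of the groups, where 14.3% of all tested genes had groups apart. The other 7 had overlapping groups with log2 changes from -0.21 in Nfe2l2 to 0.14 in Ucp2. A link between the core and the changes was not tested.

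Among the quinone and haem enzymes, Nqo1 encodes the quinone reductase most often used to read Nrf2 activity. It was at 167, 122 and 118 TPM in the Paro/Neo hearts and 128, 89.8 and 131 TPM in the Vehicle hearts. The highest value was Paro/Neo replicate 1 and the lowest Vehicle replicate 2, with the other 4 between them. The log2 change of Nqo1 was 0.22 ± 0.19 (SE), adjusted p 0.781 by limma, and it was 0.066 without Paro/Neo replicate 1 and 0.051 without Vehicle replicate 2. Hmox1, haem oxygenase 1, which breaks haem down to biliverdin, iron and carbon monoxide, was at 7.06, 11.8 and 8.52 TPM in Paro/Neo hearts, against 14.4, 8.42 and 8.13 TPM in Vehicle hearts. The highest Hmox1 value was Vehicle replicate 1, and the change of -0.15 ± 0.24 on the log2 scale (adjusted p 0.89 by limma) was 0.098 without that heart and 0.005 without Paro/Neo replicate 1.

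Glutathione is made in 2 steps and then recycled with NADPH. Gclc, the catalytic subunit of the rate-limiting ligase, was at 9.99, 10.3 and 10.7 TPM in the Paro/Neo hearts and 10.7, 11.2 and 9.50 TPM in the Vehicle hearts. Its modifier subunit Gclm was at 12.7, 10.4 and 16.3 TPM in Paro/Neo and 10.8, 15 and 11.2 TPM in Vehicle hearts, with 38 to 73 inferred reads per library. The groups overlapped for both subunits, with fold intervals of 0.832 to 1.18 for Gclc and 0.785 to 1.42 for Gclm. Gss, the synthetase of the second step, averaged 15.7 ± 0.757 TPM in Paro/Neo and 13.9 ± 1.60 TPM in Vehicle hearts, and Gsr, which reduces oxidised glutathione, averaged 21.3 ± 4.18 TPM in Paro/Neo and 20.4 ± 2.03 TPM in Vehicle hearts (SD, n = 3 each).

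Slc7a11, the cystine importer that is strongly induced by Nrf2 in cultured cells, was barely present. It was at 0.0804, 0.0972 and 0.0502 TPM in the Paro/Neo hearts and 0.0927, 0.0316 and 0.0661 TPM in the Vehicle hearts, which is 2 to 7 inferred reads per library, and it was too low to test. No difference in Slc7a11 was detectable at this depth.

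G6pdx encodes glucose-6-phosphate dehydrogenase, the first enzyme of the pentose phosphate pathway and a main source of NADPH. It was at 5.48, 7.08 and 7.5 TPM in the Paro/Neo hearts, against 8.73, 9.37 and 7.93 TPM in the Vehicle hearts, and each Paro/Neo heart was below each Vehicle heart. The ratio of means was 0.771 and the log2 change -0.34 ± 0.14 (SE; unadjusted p 0.0421, adjusted p 0.633 by limma). Without Paro/Neo replicate 1, the lowest heart, the log2 change was -0.221 (unadjusted p 0.095 by limma), and over the 6 fits that leave out 1 library it was -0.416 to -0.221. The gene lies on the minus strand of chromosome X at 74409483 to 74429194 (GRCm38) and shares an exonic stretch of 278 bases with Ikbkg on the opposite strand. The sources used here do not state whether counting used strand, so reads of such stretches cannot be assigned to 1 of the genes. In GENCODE M21, 8 of the 35 genes share exonic bases with another gene, among them Prdx5 with Trmt112, Prdx2 with Junb and Gclm with Gm6061.

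**Figure D4:**
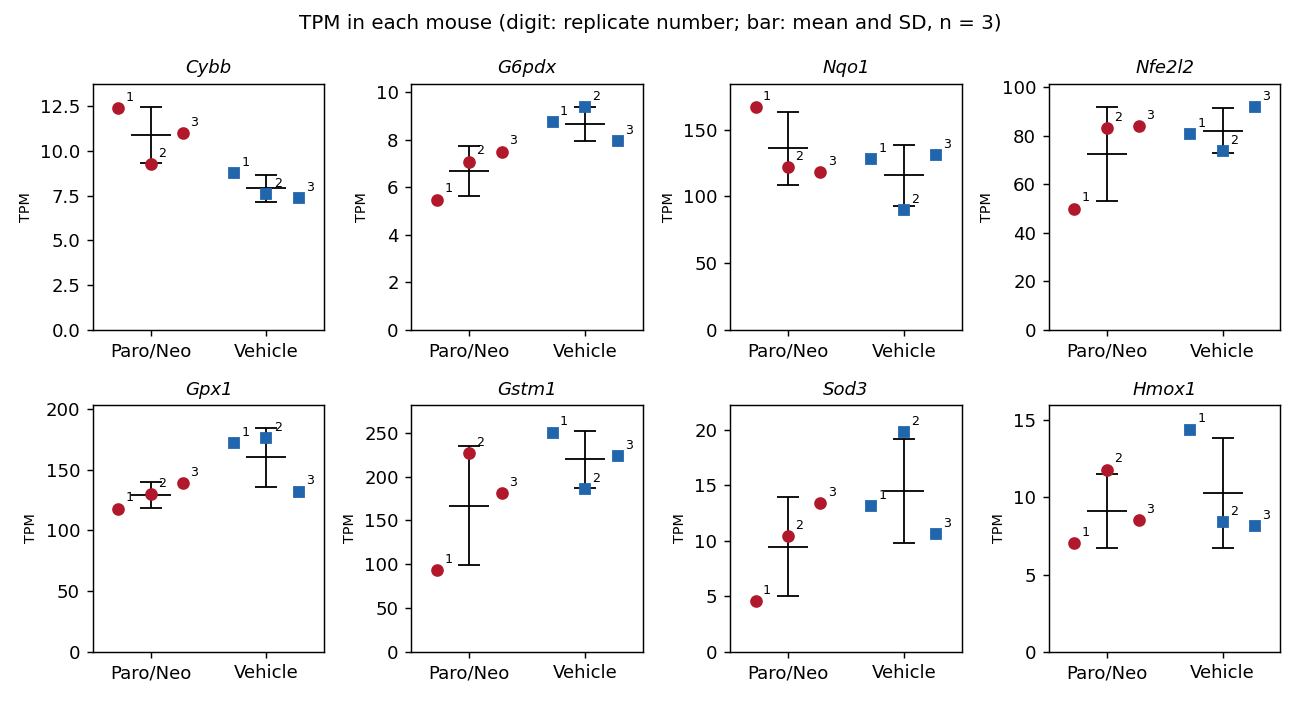
TPM of 8 antioxidant genes in each mouse, Paro/Neo left and Vehicle right, with points numbered by replicate and bars for mean and SD (n = 3 each) on axes that start at 0. Cybb and G6pdx separate the groups, while in Nfe2l2, Gstm1 and Sod3 the lowest of the 6 points is Paro/Neo replicate 1.

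In the thioredoxin system 1 of 6 genes was higher and 5 lower, none past the threshold. Txnrd1, the cytosolic reductase and an Nrf2 target, was at 27.5, 24.3 and 21.2 TPM in the Paro/Neo hearts and 23.5, 27.9 and 22.8 TPM in the Vehicle hearts. Srxn1, sulfiredoxin, which rescues overoxidised peroxiredoxins, was at 21.2, 18.2 and 18.0 TPM in Paro/Neo and 17.2, 24.3 and 20.0 TPM in Vehicle hearts. Both sets overlapped, with log2 changes of -0.02 ± 0.13 for Txnrd1 and -0.09 ± 0.14 for Srxn1 (SE). Cytosolic thioredoxin, Txn1, averaged 202 ± 27.0 TPM in Paro/Neo and 192 ± 6.15 TPM in Vehicle hearts (SD, n = 3 each). Its mitochondrial counterparts were Txn2, at 267 ± 26.4 TPM in Paro/Neo and 297 ± 17.0 TPM in Vehicle hearts, and the reductase Txnrd2, at 18.9 ± 2.41 TPM in Paro/Neo and 20.8 ± 1.80 TPM in Vehicle hearts. Glrx, glutaredoxin, which removes glutathione from protein thiols, averaged 97.7 ± 19.7 TPM in Paro/Neo and 102 ± 3.81 TPM in Vehicle hearts.

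Peroxiredoxins include the 3 most abundant genes of the group. Prdx5, found in mitochondria, peroxisomes and cytosol, was at 1108, 1084 and 1084 TPM in the Paro/Neo hearts and 1089.6, 1138 and 1128 TPM in the Vehicle hearts. The mitochondrial Prdx3 was at 1032, 741 and 786 TPM in Paro/Neo and 872, 773 and 809.7 TPM in Vehicle hearts, with Paro/Neo replicate 1 above the other 5. The cytosolic Prdx1, an Nrf2 target, was at 831, 678 and 702 TPM in Paro/Neo and 688, 839 and 726 TPM in Vehicle hearts. The groups overlapped for all 3. Prdx5, the steadiest of them, averaged 1092 ± 13.7 TPM in Paro/Neo and 1119 ± 25.6 TPM in Vehicle hearts (SD, n = 3 each). Prdx2, which is also abundant in red cells, averaged 649 ± 25.8 TPM in Paro/Neo and 703 ± 55.4 TPM in Vehicle hearts. Prdx4, the form of the endoplasmic reticulum, averaged 62.8 ± 8.54 TPM in Paro/Neo and 62.5 ± 4.32 TPM in Vehicle hearts, and the single-cysteine Prdx6 averaged 216 ± 11.4 TPM in Paro/Neo and 211 ± 11.2 TPM in Vehicle hearts (SD, n = 3 each). All 6 peroxiredoxins had log2 changes between -0.11 and 0.05, with adjusted p of 0.789 or more by limma.

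Superoxide dismutases differ by compartment. Cytosolic Sod1 averaged 726 ± 42.1 TPM in Paro/Neo and 691 ± 26.5 TPM in Vehicle hearts, and mitochondrial Sod2 averaged 469 ± 42.5 TPM in Paro/Neo and 514 ± 25.6 TPM in Vehicle hearts (SD, n = 3 each). Catalase, Cat, the peroxisomal enzyme that splits hydrogen peroxide, averaged 182 ± 21.4 TPM in Paro/Neo and 185 ± 6.14 TPM in Vehicle hearts. The extracellular form Sod3 was at 4.59, 10.4 and 13.4 TPM in the Paro/Neo hearts and 13.1, 19.8 and 10.6 TPM in the Vehicle hearts. Its log2 change of -0.63 ± 0.35 (SE, adjusted p 0.713 by limma) was the furthest from 0 among the 34 tested genes, but Paro/Neo replicate 1 was the lowest heart by a wide margin, and without it the change was -0.237. Without Paro/Neo replicate 3 the change in Sod3 was -0.917 (unadjusted p 0.0286 by limma), the other end of the range when 1 library was left out.

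Glutathione peroxidases are selenoproteins that reduce peroxides with glutathione. Gpx1, the cytosolic and mitochondrial form, was at 118, 130 and 139 TPM in the Paro/Neo hearts and 172, 176 and 132 TPM in the Vehicle hearts. Only Vehicle replicate 3 lay within the Paro/Neo range, the log2 change was -0.31 ± 0.13 (SE), and limma gave an unadjusted p of 0.0511 and 0.651 after adjustment. The plasma form Gpx3 averaged 315 ± 25.3 TPM in Paro/Neo and 353 ± 47.5 TPM in Vehicle hearts, and Gpx4, which reduces lipid peroxides in membranes, averaged 222 ± 20.2 TPM in Paro/Neo and 217 ± 20.6 TPM in Vehicle hearts (SD, n = 3 each).

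Glutathione transferases attach glutathione to electrophiles. Gstm1 was at 93.1, 227 and 181 TPM in the Paro/Neo hearts and 250.5, 186 and 224 TPM in the Vehicle hearts, with Paro/Neo replicate 1 far below the other 5. The log2 change in Gstm1 was -0.48 ± 0.30 (SE, adjusted p 0.735 by limma) with all 6 libraries. It was -0.107 without that heart and -0.744 without Paro/Neo replicate 2 (unadjusted p 0.0292 by limma), the ends of the range when 1 library was left out. Other Gstm genes are close to it in sequence, and since counting may divide shared reads among them, its own level is uncertain. The annotation also holds copies or pseudogenes named for Prdx2, Prdx6, Gpx4, thioredoxin and ferritin heavy chain, and the same holds for those levels. Gsta4, which acts on the lipid peroxidation product 4-hydroxynonenal, averaged 242 ± 28 TPM in Paro/Neo and 254 ± 10.2 TPM in Vehicle hearts (SD, n = 3 each).

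The remaining genes produce or limit reactive oxygen species. Cybb encodes the catalytic subunit of the NADPH oxidase of phagocytes, NOX2, and lies on the minus strand of chromosome X at 9435252 to 9487771 (GRCm38). It was at 12.4, 9.28 and 11 TPM in the Paro/Neo hearts, against 8.77, 7.58 and 7.37 TPM in the Vehicle hearts, and each Paro/Neo heart was above each Vehicle heart. The ratio of means was 1.38 and the log2 change 0.41 ± 0.14 (SE; unadjusted p 0.0167, adjusted p 0.504 by limma). Leaving out 1 library at a time gave log2 changes of 0.319 to 0.513, all on the same side, with adjusted p from 0.438 to 0.882 over all alternatives.

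Cyba, the partner subunit that NOX2 needs for a stable complex, was on the other side of 0, at 38.8 ± 4.64 TPM in Paro/Neo and 42.3 ± 7.56 TPM in Vehicle hearts (SD, n = 3 each). Its log2 change was -0.11 ± 0.15 (SE), and without Vehicle replicate 2 it was 0.019. Nox4, an oxidase of heart muscle and vessel walls that makes hydrogen peroxide without stimulation, averaged 1.93 ± 0.627 TPM in Paro/Neo and 2.36 ± 0.214 TPM in Vehicle hearts. Ucp2, a carrier of the inner mitochondrial membrane, averaged 14.0 ± 0.882 TPM in Paro/Neo and 12.9 ± 3.71 TPM in Vehicle hearts, with a Vehicle range of 9.79 to 17.0 TPM that enclosed all Paro/Neo hearts.

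Macrophage genes lay on the same side as Cybb. Paro/Neo means were above Vehicle for 13 of 14 macrophage and monocyte markers and below for 1, where 5743 of all 12409 tested genes were higher. By limma 0 of the 14 passed the threshold, against 0.137% of all tested genes. An unadjusted p under 0.05 by limma was found for 3, where 7.61% of all tested genes had such a p. The summed level of the 14 was 749 to 798 TPM in Paro/Neo and 629 to 754 TPM in Vehicle hearts. None of the 14 was at 0. Ctss, the lysosomal cathepsin S, was at 59.6, 50.3 and 56.0 TPM in Paro/Neo and 37.9, 36.5 and 39.0 TPM in Vehicle hearts, while Cd68 was at 9.51, 14.9 and 15.5 TPM in Paro/Neo and 16.3, 17.1 and 16.1 TPM in Vehicle hearts. The 4 listed neutrophil markers summed to 22.1 to 24.5 TPM in Paro/Neo hearts, against 6.89 to 17.7 TPM in Vehicle hearts. Most of that sum was S100a8 and S100a9. S100a8 was at 10.1 ± 0.998 TPM in Paro/Neo and 4.23 ± 1.26 TPM in Vehicle hearts (SD, n = 3 each), with 9 to 35 inferred reads per library. S100a9 overlapped between the groups, at 11.1 to 14.1 TPM in Paro/Neo and 3.96 to 11.7 TPM in Vehicle hearts. Cxcr2 and Retnlg were too low to test. The part of these cells in the Cybb values was not tested.

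Endothelial markers lay mostly on the lower side, with 5 of 6 lower and Emcn higher, where 6666 of all 12409 tested genes were lower. Their summed level was 3443 to 4015 TPM in Paro/Neo hearts, against 4121 to 4546 TPM in Vehicle hearts. Fabp4 made up most of that sum, at 3082 to 3564 TPM in Paro/Neo and 3649.8 to 4011 TPM in Vehicle hearts. All 6 fibroblast markers were lower, with sums of 2149 to 2362 TPM in Paro/Neo and 2362 to 2473 TPM in Vehicle hearts. Most of that sum was Dcn, with a log2 change of -0.02, while the change reached -0.83 in Col1a1. By limma 0 of the 6 passed the threshold, against 0.137% of all tested genes. An unadjusted p under 0.05 was found for 2 of them, where 7.61% of all tested genes had such a p. Paro/Neo replicate 1 had the lowest sum in both lists, and also for the cardiomyocyte markers, at 115011 TPM. That library was the lowest of the 6 for 14 tested antioxidant genes, among them Sod3, Gstm1, Gpx1 and G6pdx, and the highest for 8. It held the highest or the lowest value for 60.0% of all tested genes. Of the 5 tested erythroid markers all were lower, while the sums of the 6 listed overlapped, at 2434 to 3802 TPM in Paro/Neo and 2366 to 4999 TPM in Vehicle hearts. Among them Hba-a1 and Hba-a2 had the same inferred reads, 1553 to 2645 per library, and the same log2 change, -0.51. They cannot be taken as separate measures, and both enter the count and the sums. Smooth muscle markers summed to 350 to 655 TPM in Paro/Neo and 403 to 499 TPM in Vehicle hearts, with 1 of 5 higher and 4 lower. The highest of these sums, in Paro/Neo replicate 1, was mostly Rgs5, at 609.5 TPM. Lymphocyte markers summed to 2.76 to 4.19 TPM in Paro/Neo and 1.21 to 2.23 TPM in Vehicle hearts. All 7 lymphocyte markers were too low to test, with 12 inferred reads or fewer per library. The 8 cardiomyocyte markers summed to 115011 to 145735 TPM in Paro/Neo hearts and 124596 to 133678 TPM in Vehicle hearts. The part of these cell types in the values of the antioxidant genes was not tested.

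A further list held other genes of the same pathway. Of its 82 genes that act beside the 35, 81 were in the table and 74 were tested, with Paro/Neo means above Vehicle for 36 and below for 38. The median log2 change of the list was -0.009. None passed the threshold by limma, and 7 had an unadjusted p under 0.05, 4 on the higher side and 3 on the lower, where 7.61% of all tested genes had such a p. The groups did not overlap for 11 of the 74, with 6 higher and 5 lower, where 14.3% of all tested genes were apart. Both shares are near those of all tested genes, so the values of the 7 are given as a description.

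The 4 genes on the higher side were Bach1, Nfe2l1, Fth1 and Sesn1. Bach1 and Nfe2l1 come from the list of Nrf2 regulation, in which 5 of 9 genes were higher and 4 lower, the median log2 change being 0.004. Bach1, a repressor that competes with Nrf2 at antioxidant response elements, was at 17.0, 15.3 and 13.9 TPM in Paro/Neo and 12.8, 12.4 and 12.7 TPM in Vehicle hearts (adjusted p 0.643 by limma). Nfe2l1, a relative of Nrf2 that drives proteasome genes, was at 226, 190.3 and 193 TPM in Paro/Neo and 176, 169 and 165 TPM in Vehicle hearts (adjusted p 0.608). Each of these 2 genes was higher in every Paro/Neo heart than in any Vehicle heart. Fth1, the ferritin heavy chain, which stores iron, was at 2101, 1853 and 2148 TPM in Paro/Neo and 1662, 1800.4 and 1643 TPM in Vehicle hearts (adjusted p 0.59). Sesn1, sestrin 1, a stress-induced inhibitor of mTORC1 signalling, was at 164, 143 and 134 TPM in Paro/Neo and 117, 92.9 and 116 TPM in Vehicle hearts (adjusted p 0.454). The groups did not overlap for Fth1 or Sesn1 either, and the log2 change of 0.43 ± 0.13 (SE) in Sesn1 had the smallest p of the list.

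The 3 genes on the lower side were Akr1b8, Cbr1 and Blvrb, from a list of quinone, carbonyl, haem and iron genes that had 5 higher and 8 lower of 13 tested. In the same list Akr1b3, another aldo-keto reductase, was at 82.0 ± 10.2 TPM in Paro/Neo and 66.2 ± 19.2 TPM in Vehicle hearts (SD, n = 3 each), which is 0.33 on the log2 scale and overlaps between the groups. Akr1b8, an aldo-keto reductase, was at 5.21, 7.10 and 4.74 TPM in Paro/Neo and 9.08, 8.17 and 7.49 TPM in Vehicle hearts (adjusted p 0.502 by limma). Cbr1, a carbonyl reductase, was at 33.8, 43.3 and 44.7 TPM in Paro/Neo and 51.0, 51.7 and 49.5 TPM in Vehicle hearts (adjusted p 0.59). Both separated the groups, with every Paro/Neo heart lower. Blvrb, biliverdin reductase B, was at 17.0, 18.6 and 19.2 TPM in Paro/Neo and 45.3, 20.8 and 24.5 TPM in Vehicle hearts (adjusted p 0.628). Its groups did not overlap either, and Vehicle replicate 1 stood far above the rest. The glutathione list, with 24 tested transferases, transporters and related genes, and the NADPH list, with 7, each had 0 genes at an unadjusted p under 0.05 by limma.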

How the data were processed

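The values used are TPM as the authors deposited them, in a single table whose columns are the 6 mice and each sum to 1000000. STAR 2.5.3a, featureCounts with Subread, edgeR and FastQC 0.11.5 are named, without their roles, and mm10 as the build, per the submitters' processing notes. Annotation, strand setting and feature filter: not given in the sources used here. Groups and replicate numbers follow the sample titles.

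Genes that reached 1 TPM in 3 or more of the 6 libraries, 12409 in number, were fitted with limma 3.58.1 in R 4.3.3 on log2(TPM + 1), with an intensity trend, two-sided, with Benjamini-Hochberg adjustment over all of them and a threshold of 0.05. SE and 95% intervals are moderated. The fit was tested on simulated data. An exact permutation test of 3 against 3 cannot go below p = 0.10, so none is given. Gene coordinates are from GENCODE M21. Reads were inferred from ratios of TPM between libraries, which came out whole within 0.001 of a read for 17574 of 17574 features above 0. They are lower estimates, since a factor shared by all 6 libraries cannot be seen.

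The 35 genes and the lists were chosen with earlier results of these data known. Of the 35, values per mouse are given for Nfe2l2, Keap1, Nqo1, Hmox1, Gclc, Gclm, Txnrd1, Srxn1 and Slc7a11, for genes with an unadjusted p under 0.05 or groups apart, and for the 3 most abundant. Of the other pathway genes, up to 6 in each direction with the smallest unadjusted p under 0.05 are named. Those given per mouse for Sod3, Gpx1, Gstm1, Ctss and Cd68, and the mean of Akr1b3, were chosen after their values were seen. Emr1, Sepp1 and Sepw1 stand for Adgre1, Selenop and Selenow. Alternatives were a pseudocount of 0.1 TPM, no filter, a filter at 5 TPM, quantile normalization, TMM factors, array weights, a replicate block, each library left out and, added after seeing the data, voom on the inferred reads.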

Additional observations from a re-analysis of the deposited data

How the results depend on the processing

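The count of antioxidant genes past the threshold was 0 under all 14 alternatives, and their median log2 change was -0.070 to -0.002. Paro/Neo means were higher for 12 of 34, for 15 with TMM factors, and for 9 to 17 when 1 library was left out. Over all genes, 15 were higher and 2 lower past the threshold. Leaving out 1 library gave 4 to 23 higher and 0 to 4 lower, no filter gave 5 and 1, the lower count was 1 with a filter at 5 TPM or quantile normalization and 4 with array weights. No label says that replicate numbers pair the mice, and no sign of it was seen. Correlations of same-numbered deviations were -0.0528, -0.0356 and -0.122, and no library correlated best with the same number in the other group. Deviations from means of 3 mice cannot show that the mice were unpaired. With the replicate block 25 genes were higher, 2 lower and 0 antioxidant genes passed. Cybb had an unadjusted p under 0.05 in 13 of 14 alternatives, the exception being without Vehicle replicate 3, and G6pdx in 8. Gpx1 had one in 2 (0.00912 without Vehicle replicate 3), and Glrx, Sod3, Gstm1, Nox4 and Ucp2 in 1 each. Among 475 fits of single genes under alternatives 45 had the opposite sign, all in genes within 0.21 of 0 on the log2 scale, and 16 genes never did. The sign was opposite with quantile normalization in Keap1 (0.019), Gclc (0.013), Prdx4 (-0.019) and Gpx4 (-0.002). With TMM factors it was opposite in Keap1 (0.019), Gclc (0.013) and Txnrd1 (0.003). With array weights it was opposite in Keap1 (0.029), Gclc (0.004), Txn1 (-0.016), Cat (0.051), Prdx3 (-0.094), Prdx4 (-0.075), Gpx4 (-0.015) and Gsta4 (0.028). Leaving out 1 library, the changes ran from -0.337 to 0.030 for Nfe2l2, -0.085 to 0.075 for Keap1, -0.327 to 0.098 for Hmox1, -0.073 to 0.032 for Gclc, -0.079 to 0.224 for Gclm, -0.102 to 0.145 for Gsr, -0.043 to 0.121 for Txn1, -0.111 to 0.068 for Txnrd1, -0.199 to 0.038 for Srxn1, -0.239 to 0.034 for Glrx, -0.087 to 0.070 for Cat, -0.116 to 0.056 for Prdx1, -0.099 to 0.140 for Prdx3, -0.108 to 0.057 for Prdx4, -0.032 to 0.113 for Gpx4, -0.161 to 0.000 for Gsta4, -0.230 to 0.019 for Cyba and -0.029 to 0.340 for Ucp2. The cause of these moves was not tested.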
